A study of Mus musculus with 15 samples.

Results

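Loss of caspase-8 activity was examined by pooling both kinds of Casp8 mutant in the series, a knockin of the C362A substitution and a knockout, against wildtype Casp8. The comparison used all 15 libraries of the series. The 10 mutant libraries (5 C362A and 5 knockout) were set against the 5 wildtype libraries as the average of the 2 mutant means minus the wildtype mean, on the log2 scale. Membership was taken from the genotype labels and used no measured value. A change in the pooled comparison is the mean of both mutants' changes. It can therefore come mostly from 1 mutant, so the change in each mutant is given for the called genes, and a later paragraph tests C362A against knockout for them.

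Small intestine was taken from mouse embryos at stage E16.5 (embryonic day), and its RNA was sequenced as polyA libraries in 3 genotypes of 5 libraries each. Every genotype, the wildtype Casp8 group included, was an Mlkl knockout, so no group in the series has normal Mlkl. The first group carried wildtype Casp8 on that background, the second a Casp8 knockout, and the third Casp8 C362A, in which the catalytic cysteine is replaced by alanine. The labels describe the intestine of the C362A libraries as inflamed and that of both other groups as normal, without saying whether each animal was examined. The labels give no litter, sex or replicate number, and do not say whether a library is 1 embryo or a pool. Library numbers follow accession order inside each group, and p-values measure only the spread between these samples.

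Caspase-8 is the initiator protease of apoptosis triggered by death receptors, where the adaptor FADD recruits it. As a heterodimer with the inactive homolog cFLIP it also cleaves RIPK1 and RIPK3 and so restrains necroptosis, the lytic death that RIPK3 starts by phosphorylating the pseudokinase MLKL. Mice without caspase-8 die in utero unless RIPK3 or MLKL is also missing. In the present samples Mlkl was deleted in every group, so the comparison shows the transcripts that differ when caspase-8 or its catalytic site is missing and necroptosis by MLKL is absent from both sides.

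Libraries held 31896399 to 38532127 counts in genes, and 22295 to 24039 genes had at least 1 count. None of the 27 enterocyte markers was at 0 in all libraries, and they had summed levels of 9310 to 38344 counts per 1e+06 counts (CPM) per library, so markers of the labelled tissue were found in every group. C362A replicates 1, 3 and 4 and knockout replicate 4 had fewer than 23000 detected genes, and lay together at 1 end of the first principal component (32.8% of variance). No wildtype library lay there. Leaving these 4 libraries out was therefore added as an alternative after seeing the data. Sample ID numbers fell into 2 consecutive series, the first with 2 libraries of each genotype and the second with 3, and pooled values within each are given for the called genes and for the medians of the gene lists, the first series before the second. All 4 libraries with few detected genes belong to the second, where they include all 3 of its C362A libraries, so the ID series and the number of detected genes cannot be told apart among the C362A libraries. Because whole intestine was measured, fewer cells of a type and less RNA per cell cannot be told apart.

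Of 18370 genes tested, 11 passed at an adjusted p of 0.05 (the quasi-likelihood test of edgeR, Benjamini-Hochberg adjustment), which is 0.0599% of genes. Of these, 10 (0.0544%) were higher in the mutants and 1 (0.00544%), Casp8 itself, was lower. The genes that rose were Cxcl10, Slamf8, Mmp9, Clec4n, Mgl2, Spic, Ccl12, Dnase1l3, Serpina3f and an unnamed gene model, Entrez 102641905. That model had the same count as Ccl12 in every library, so the 10 genes hold 9 separate signals. Apart from Serpina3f and the unnamed model, the genes that rose encode chemokines, lectins and other receptors, secreted enzymes and a transcription factor known from macrophages, dendritic cells or neutrophils. In 8 of these 10 genes, all 10 mutant libraries lay above all 5 wildtype libraries, an order found in 18 of all tested genes (0.098%). At an unadjusted p of 0.05, 613 genes (3.34%) were higher and 454 (2.47%) lower, and the median log2 fold change of all genes was -0.00274.

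**Figure D1:**
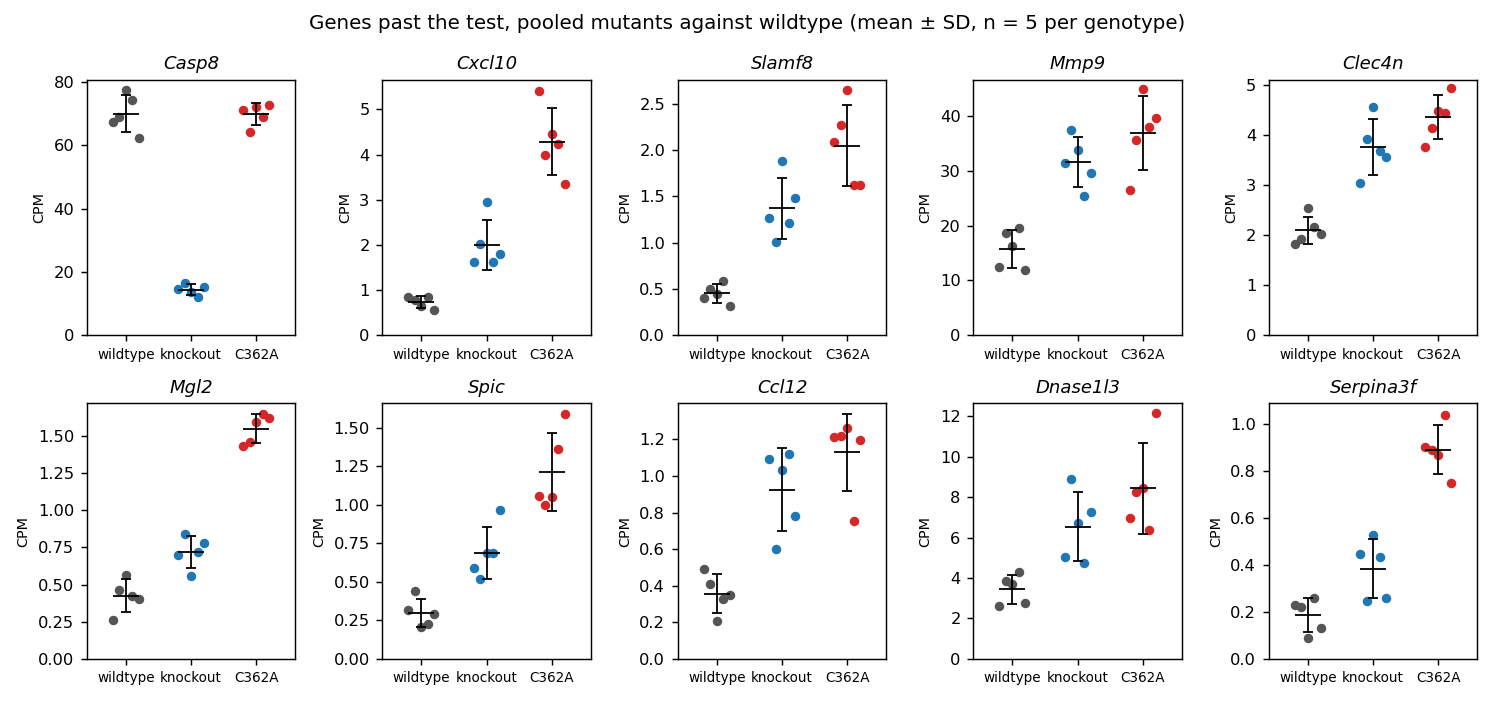
Levels in CPM (vertical axes, each starting at 0) of 10 of the 11 genes past the pooled test, by genotype. Each point is a library and bars show mean ± SD of 5 libraries. Casp8 is low in knockout only, near 14.4 CPM, while the other panels have higher means in both mutants than in wildtype, with C362A the highest. For Mgl2 and Serpina3f some mutant libraries lie within the wildtype range.

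Casp8 (Entrez 12370, chr1:58795233-58847503, GRCm38) was measured at 71.2, 64.4, 72.1, 69.1 and 72.8 CPM in the C362A libraries. The knockout libraries held 14.5, 16.54, 13.5, 12.2 and 15.2 CPM. The wildtype libraries held 67.3, 68.9, 77.5, 74.3 and 62.3 CPM. Every knockout library lay below every other library, and the C362A libraries lay within the wildtype range. The pooled log2 fold change of -1.14 (SE 0.07, adjusted p = 5.84e-08 in edgeR's quasi-likelihood test) is thus the mean of 0.00 in C362A and -2.28 in knockout. C362A against knockout differed by 2.28 on the log2 scale (adjusted p = 2.61e-11). Within the ID series the pooled value was -1.14 and -1.15. Casp8 was the only gene called lower in the pooled test, and its fall was in 1 mutant. Counts summed over a gene cannot reveal the C362A substitution. Which exons gave the reads left in knockout libraries was not examined.

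None of the partners of caspase-8 passed the test. Over the 24 tested genes of caspase-8 complexes and necroptosis, 1 passed (Casp8) and the median log2 fold change was -0.04, with 0.04 and -0.08 within the ID series. Cflar, which encodes cFLIP, had a pooled log2 fold change of -0.02 (SE 0.07, adjusted p = 0.935). The adaptor gene Fadd had 0.01, the kinase gene Ripk1 0.03 and Ripk3 -0.05, and the smallest adjusted p of these was 0.848 by edgeR. Mlkl was barely detected in any group, with 0.506 ± 0.179 CPM in wildtype, 0.521 ± 0.119 in knockout and 0.389 ± 0.261 in C362A (SD, n = 5 each). Its deletion cannot be read from a comparison here, since no group retains the gene. Genes downstream in cell death gave no call either, by edgeR, DESeq2 or limma-voom. None of 15 BCL2 family genes, 13 apoptosome and executioner caspase genes, 13 genes of caspase-8 substrates or 21 inflammasome and pyroptosis genes passed, and none of these had an unadjusted p under 0.05. Their medians were -0.03, -0.01, 0.02 and -0.08. For the first 3 lists the medians lay between -0.08 and 0.02 within either ID series. The inflammasome median changed sign, with 0.17 in the first series and -0.24 in the second, and was 0.01 without wildtype replicate 4. It was -0.24 in C362A and 0.07 in knockout, values that share the wildtype libraries.

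Cxcl10 (Entrez 15945, chr5:92346638-92348889), a chemokine that attracts CXCR3-bearing T and NK cells and is induced by interferons, had the largest fold change among the 10 genes that rose. The C362A libraries held 5.42, 4.0, 4.45, 4.23 and 3.36 CPM. The knockout libraries held 1.63, 2.01, 2.94, 1.62 and 1.80 CPM. The wildtype libraries held 0.839, 0.768, 0.655, 0.850 and 0.560 CPM, from 21 to 29 counts each. The 3 genotypes did not overlap, in the order wildtype, knockout, C362A. On the log2 scale the pooled change was 2.0 (SE 0.19, adjusted p = 4.34e-05 in edgeR's quasi-likelihood test), with 2.54 in C362A and 1.45 in knockout. The difference between the mutants was 1.10 and did not pass (adjusted p = 0.11). Within the ID series the pooled value was 1.82 and 2.10, and it was 1.91 without the 4 libraries with few detected genes.

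Slamf8 (Entrez 74748, chr1:172581377-172590873) encodes a receptor of the SLAM family found on macrophages and other myeloid cells. C362A libraries held 2.09, 2.27, 2.64, 1.62 and 1.62 CPM. Knockout libraries held 1.26, 1.01, 1.88, 1.22 and 1.48 CPM. Wildtype libraries held 0.405, 0.494, 0.446, 0.588 and 0.320 CPM. The mutants overlapped each other and both lay above wildtype, whose counts were 12 to 18 per library. Both mutants together gave a log2 fold change of 1.89 (SE 0.21, adjusted p = 0.000435 in edgeR's quasi-likelihood test), with 2.18 in C362A and 1.61 in knockout. It was 1.86 and 1.91 within the ID series and 1.87 without the 4 libraries.

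Cxcl10 and Slamf8 had the largest pooled changes among the genes that rose, and their promoters are shown because both hold matches to 3 kinds of motif, for interferon-regulated factors, NF-kB and AP-1. The windows run from 250 bases before to 50 bases after a transcription start in RefSeq on GRCm38.p6, both on the minus strand, at chr5:92348840-92349139 for Cxcl10 and chr1:172590519-172590818 for Slamf8. The Cxcl10 window spans the upstream end of its gene. The Slamf8 window lies wholly inside the gene span given above, so its start is an internal one, downstream of the gene's outermost end. Matches are in capitals.
Cxcl10: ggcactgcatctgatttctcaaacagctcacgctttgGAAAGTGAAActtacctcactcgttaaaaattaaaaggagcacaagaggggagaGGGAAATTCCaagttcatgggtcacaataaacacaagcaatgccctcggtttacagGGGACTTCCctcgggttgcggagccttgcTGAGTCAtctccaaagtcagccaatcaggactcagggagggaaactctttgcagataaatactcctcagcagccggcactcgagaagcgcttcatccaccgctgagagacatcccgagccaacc
Slamf8: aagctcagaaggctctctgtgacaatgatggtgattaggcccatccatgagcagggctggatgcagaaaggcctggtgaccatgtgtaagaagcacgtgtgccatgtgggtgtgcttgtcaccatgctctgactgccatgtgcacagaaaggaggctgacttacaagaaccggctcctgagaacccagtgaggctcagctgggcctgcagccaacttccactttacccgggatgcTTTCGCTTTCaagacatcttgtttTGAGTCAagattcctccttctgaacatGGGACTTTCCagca
In the Cxcl10 window, GAAAGTGAAA matched the interferon-stimulated response element (ISRE) pattern GAAANNGAAA at 213 bases before the start. GGGAAATTCC and GGGACTTCC, at 159 and 103 bases before, matched the kB patterns GGGANNTTCC and GGGANTTCC, and TGAGTCA at 74 bases before matched the AP-1 pattern TGANTCA. In the Slamf8 window, TTTCGCTTTC is an ISRE match on the other strand at 15 bases before the start, and TGAGTCA and GGGACTTTCC lie at 10 and 37 bases after it. None of these matches overlap each other. Patterns were searched on both strands and chosen after these sequences had been seen. Among 17048 windows of tested genes, 3.09% held the ISRE pattern, 1.51% and 2.06% the 10-base and 9-base kB patterns and 5.67% the AP-1 pattern. Windows were found for 7 of the 11 called genes, Casp8 included. Those of Casp8, Spic, Mgl2, Ccl12 and Serpina3f held no match to the ISRE, kB or AP-1 patterns. AGGAAGT, a form of the PU.1 site, was found in 8.92% of windows and in those of Spic, Mgl2 and Ccl12. A match describes letters and is not evidence of binding.

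Mmp9 (Entrez 17395, chr2:164940326-164955850), a gelatinase released by neutrophils and made by activated macrophages, had the highest level of the genes that rose, both in CPM and per length. C362A libraries held 26.5, 35.7, 45.1, 38.0 and 39.8 CPM. Knockout libraries held 31.5, 37.6, 33.9, 25.4 and 29.7 CPM. Wildtype libraries held 12.4, 18.6, 16.2, 19.6 and 11.99 CPM. Both mutants lay above wildtype and overlapped each other. Pooled, the log2 fold change was 1.12 (SE 0.14, adjusted p = 0.0022 in edgeR's quasi-likelihood test), with 1.23 in C362A and 1.0 in knockout. It was 1.31 and 0.99 within the ID series and 1.16 without the 4 libraries. Per length of the gene (RPKM, reads per kilobase and per 1e+06 reads), the mean level was 10.6 in C362A, 9.07 in knockout and 4.53 in wildtype.

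Clec4n and Mgl2, both of them lectin receptor genes, rose as well. Clec4n (Entrez 56620, chr6:123229843-123247024) encodes dectin-2, a receptor of macrophages and dendritic cells for fungal mannans. Its C362A libraries held 3.77, 4.14, 4.48, 4.43 and 4.94 CPM, its knockout libraries 3.03, 3.92, 4.56, 3.68 and 3.57 CPM, and its wildtype libraries 1.82, 1.92, 2.53, 2.16 and 2.03 CPM. The mutants overlapped and neither reached down to wildtype. The pooled log2 fold change was 0.95 (SE 0.12, adjusted p = 0.00224 in edgeR's quasi-likelihood test), with 1.06 in C362A and 0.84 in knockout, and it was 0.92 and 0.97 within the ID series, and 0.98 without the 4 libraries.

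Mgl2 (Entrez 216864, chr11:70130125-70137542) encodes a galactose-type lectin of dendritic cells and macrophages. It held 0.260, 0.466, 0.565, 0.425 and 0.400 CPM in wildtype, 0.702, 0.843, 0.557, 0.717 and 0.781 in knockout and 1.43, 1.46, 1.59, 1.65 and 1.62 in C362A. All C362A libraries lay above all others, and knockout replicate 3 fell within the wildtype range. Both mutants together gave a log2 fold change of 1.31 (SE 0.19, adjusted p = 0.00854 in edgeR's quasi-likelihood test), with 1.87 in C362A and 0.76 in knockout, and the difference between the mutants did not pass (adjusted p = 0.186). The pooled value was 1.43 and 1.23 within the ID series. With the 10 mutants as 1 group it did not pass (adjusted p = 0.313). Without the 4 libraries with few detected genes the pooled value was 1.30 and no longer passed (adjusted p = 0.127).

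Spic (Entrez 20728, chr10:88675269-88683023) encodes an ETS-family transcription factor needed for red pulp macrophages of the spleen, which recycle iron from red cells. Its level was 0.297 ± 0.091 CPM in wildtype, 0.689 ± 0.169 in knockout and 1.21 ± 0.254 in C362A (SD, n = 5 each), the wildtype libraries having 7 to 16 counts. All 10 mutant libraries lay above wildtype. Pooled, the log2 fold change was 1.60 (SE 0.24, adjusted p = 0.00854 in edgeR's quasi-likelihood test), with 2.01 in C362A and 1.20 in knockout. Erythroid genes, whose products reach such macrophages, had a median log2 fold change of 0.33 and summed levels of 2208 to 5696 CPM in wildtype, 1830 to 4820 in knockout and 1686 to 4115 in C362A, with no member past the test. The erythroid median was 0.23 and 0.25 within the ID series, and 0.12 without the 4 libraries with few detected genes. Over the members with at least 5 CPM in 5 libraries it was 0.005. Spic had 1.88 and 1.42 within the ID series. Spic did not pass without the 4 libraries (log2 fold change 1.64, adjusted p = 0.101) or with the 10 mutants as 1 group (adjusted p = 0.0618).

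Ccl12 (Entrez 20293, chr11:82101845-82103399), a chemokine that attracts monocytes, ranged from 0.598 to 1.26 CPM in the mutants, with a median of 1.11 CPM. Wildtype libraries held 0.492, 0.411, 0.208, 0.327 and 0.346 CPM. The groups did not overlap, though wildtype rested on 7 to 17 counts per library. On the log2 scale the pooled change was 1.5 (SE 0.24, adjusted p = 0.0153 in edgeR's quasi-likelihood test), with 1.65 in C362A and 1.36 in knockout. It was 1.37 and 1.56 within the ID series. Without the 4 libraries it was 1.51 and did not pass (adjusted p = 0.101).

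Dnase1l3 (Entrez 13421, chr14:7965187-7994760) encodes a secreted nuclease of macrophages and dendritic cells that degrades DNA in chromatin released by dying cells. Mutant libraries ranged from 4.74 to 12.2 CPM with a median of 7.13 CPM, and wildtype libraries held 2.63, 3.84, 3.72, 4.28 and 2.74 CPM. The lowest mutant library, knockout replicate 4, lay just above the highest wildtype library. The pooled log2 fold change was 1.11 (SE 0.19, adjusted p = 0.0244 in edgeR's quasi-likelihood test), with 1.30 in C362A and 0.93 in knockout. It was 1.51 and 0.81 within the ID series and 1.29 without the 4 libraries. It did not pass with the 10 mutants as 1 group (adjusted p = 0.0618) or among the genes with at least 5 CPM in 5 libraries (adjusted p = 0.108).

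Serpina3f (Entrez 238393, chr12:104214544-104221129) belongs to a cluster of near-identical serine protease inhibitor genes, and counting of unique reads may split or drop their reads. Mutants held 0.245 to 1.04 CPM with a median of 0.640 CPM, against 0.0893 to 0.261 CPM in wildtype, where each library had 3 to 8 counts. Of the 10 mutant libraries, 8 lay above all wildtype libraries. Pooled, the log2 fold change was 1.64 (SE 0.28, adjusted p = 0.035 in edgeR's quasi-likelihood test), with 2.24 in C362A and 1.03 in knockout, and it passed in 3 of the 15 fits that leave out 1 library. Without the 4 libraries it was 1.55 and did not pass (adjusted p = 0.567), nor did it with the 10 mutants as 1 group (adjusted p = 0.365). It was 1.48 and 1.70 within the ID series.

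**Figure D2:**
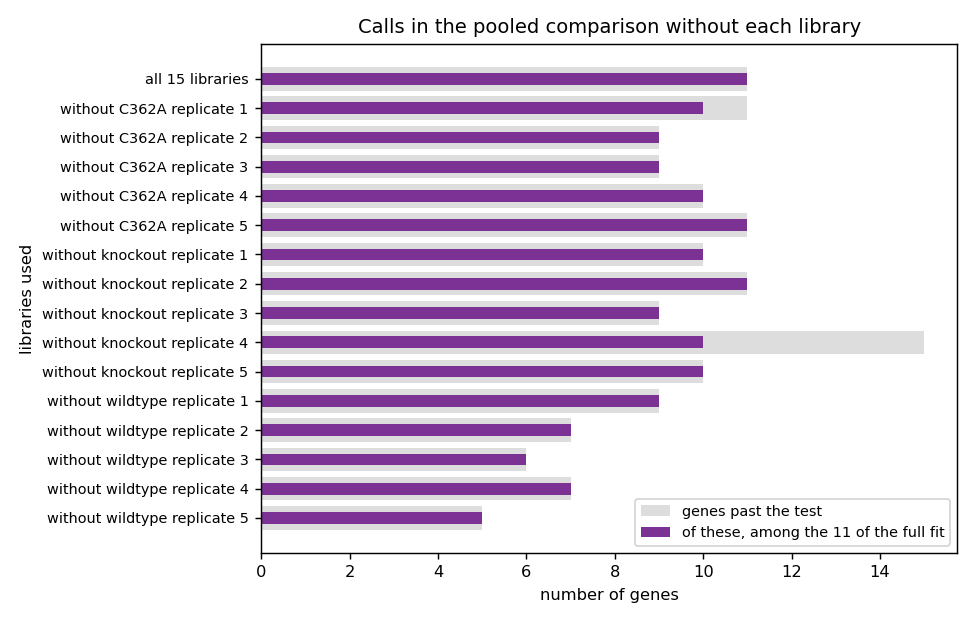
Number of genes past the pooled test (horizontal axis) with all 15 libraries and without each in turn. Grey bars count all calls and purple bars those among the 11 of the full fit. The count runs from 5 without wildtype replicate 5 to 15 without knockout replicate 4.

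Casp8, Cxcl10, Slamf8, Mmp9 and Clec4n passed in all 15 fits that left out 1 library. Mgl2 passed in 14, Spic in 12, Ccl12 in 11 and Dnase1l3 in 7 of the 15. The lowest count, 5 genes, came without wildtype replicate 5, and the counts without wildtype replicates 2, 3 and 4 were 7, 6 and 7. Within the first ID series, with 2 libraries a genotype, only Casp8 passed. Within the second, 685 genes passed, 38 higher and 647 lower, among them all 11 of the full fit. With DESeq2, 28 genes passed, among them all 11, and with the 10 mutants treated as 1 group 6 passed, without Casp8, Dnase1l3, Mgl2, Serpina3f and Spic. Each of the 10 genes that rose had a positive value in both series, and the lowest was 0.81, for Dnase1l3 in the second. These genes were called higher with the libraries of both series, so the shared sign is not independent evidence.

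The mutants were then compared with each other. Of 18370 genes, 2 (0.0109%) passed in edgeR's quasi-likelihood test of C362A against knockout, Casp8 and Ddit4, both higher in C362A. Ddit4, which encodes an inhibitor of mTORC1 induced by stress, held 51.0, 44.8, 52.5, 55.1 and 45.8 CPM in wildtype, 35.8, 35.7, 34.2, 37.2 and 37.2 in knockout and 56.5, 50.3, 53.7, 48.9 and 61.1 in C362A. The knockout libraries stood below both other groups. The mutants differed by 0.59 on the log2 scale (adjusted p = 0.00374), and pooling gave a value of -0.18 that did not pass (adjusted p = 0.758). At an unadjusted p of 0.05, 1193 genes (6.49%) were higher and 1362 (7.41%) lower in C362A than in knockout, more than the pooled test gave against wildtype. The number passing was 26 with DESeq2, 372 within the second ID series and 805 without C362A replicate 5.

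All 10 genes that rose had a larger change in C362A than in knockout, beside 53.2% of all tested genes with a higher value in C362A than in knockout. For 5 of the 10 the difference had an unadjusted p under 0.05, and for none of them did it pass after adjustment. For Clec4n the difference was 0.21, for Mmp9 0.23, for Ccl12 0.29 and for Dnase1l3 0.37 on the log2 scale, with adjusted p of 0.462, 0.495, 0.59 and 0.402 by edgeR. For Slamf8 it was 0.58, for Spic 0.81 and for Serpina3f 1.21, each with an adjusted p of 0.317. For Cxcl10 and Mgl2 it was 1.10. All 5 C362A libraries lay above all 5 knockout libraries for both genes, as also for Spic and Serpina3f. How many of all tested genes have this order was not counted, so it is given as values only. Both mutants' changes share the wildtype libraries, so their common sign is not independent evidence. The inflamed label falls on the C362A libraries alone and cannot be told apart from that genotype.

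**Figure D3:**
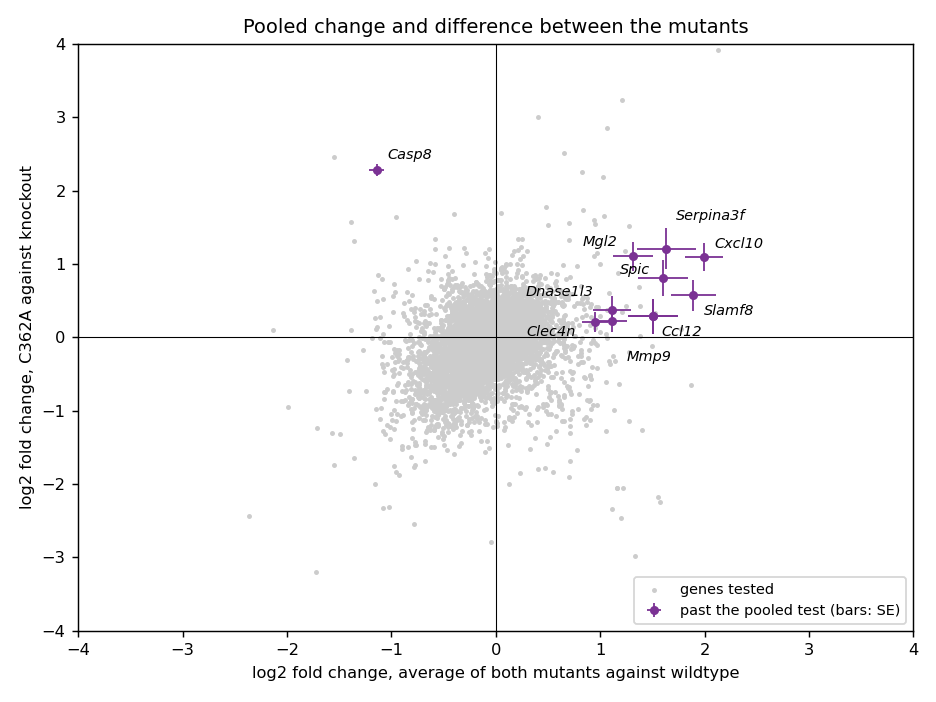
Pooled log2 fold change (horizontal) against the log2 fold change of C362A against knockout (vertical) for each gene tested. The axes leave out 3 genes. Purple points with SE bars are the genes past the pooled test. Casp8 lies at -1.14 and 2.28, and the genes that rose lie at differences from 0.21 (Clec4n) to 1.21 (Serpina3f).

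By role, macrophage and monocyte genes gave the most calls. Of 25 tested, 4 passed higher (Slamf8, Clec4n, Mgl2 and Spic) and none lower, beside 0.0544% of all genes. Of the 25, 19 had a positive value, and the median log2 fold change was 0.16, with 0.24 in C362A and 0.09 in knockout. The list was drawn up with earlier results of these data known, so its count is not independent evidence. Summed over the list, macrophage genes held 334 to 486 CPM in wildtype, 368 to 472 in knockout and 390 to 485 in C362A. The ranges of the sums overlapped between all 3 genotypes. The part of macrophage number in the calls was not tested. Within the ID series the median was 0.17 and 0.18.

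Other macrophage genes had values of both signs. The following genes were named after their values were seen, unless said otherwise. Adgre1, which encodes a surface marker of mature macrophages, held 8.76, 9.22, 7.59, 9.38 and 7.65 CPM in wildtype, 11.5, 12.3, 15.3, 8.51 and 14.4 in knockout and 13.7, 12.8, 16.1, 15.5 and 13.6 in C362A. Knockout replicate 4 alone fell within the wildtype range. Its pooled log2 fold change was 0.65 (adjusted p = 0.0574 in edgeR's quasi-likelihood test). Cd86, a costimulatory ligand of antigen-presenting cells, had 0.61 (adjusted p = 0.0766), and Fpr2, a receptor for formylated peptides, had 1.77 (adjusted p = 0.0616). For both, all 10 mutant libraries lay above wildtype, and neither passed. DESeq2 called these 3 genes higher, with adjusted p of 0.00024, 0.003 and 0.000605 for Adgre1, Cd86 and Fpr2. C1qa, a complement gene abundant in tissue macrophages, had 0.27.

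Beside the 8 called genes, 10 other genes had all 10 mutant libraries above all 5 wildtype libraries without passing. Besides Cd86 and Fpr2 they were Gimap4, Rgs16, Filip1, Clec1a, Adam17, Wwc2, Gm10677 and an unnamed model, named after their values were seen. Gimap4, a GTPase of lymphocytes and endothelium, held 15.1, 16.9, 19.0, 14.5 and 17.2 CPM in wildtype, 19.8, 22.3, 19.6, 22.2 and 21.4 in knockout and 24.8, 19.6, 21.0, 23.4 and 19.7 in C362A. The mutants overlapped each other, and the pooled log2 fold change was 0.37 (SE 0.08, adjusted p = 0.211 in edgeR's quasi-likelihood test). Adam17, the protease that releases TNF from the cell surface, had a small value of 0.14 (SE 0.04, adjusted p = 0.758). Rgs16, a regulator of G protein signalling, had 0.45 and Clec1a, a lectin of endothelial and dendritic cells, 0.39, with adjusted p of 0.333 and 0.561. In the opposite order, all mutants below all wildtype libraries, 3 genes (0.0163%) were found, none of them past the test.

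On the lower side no gene but Casp8 passed. Ccl24, a chemokine for eosinophils made by resident macrophages and named by the rule, had the smallest p after Casp8, with a log2 fold change of -0.65 (SE 0.14, adjusted p = 0.19 in edgeR's quasi-likelihood test). Mutants held 6.20 to 12.1 CPM with a median of 9.23 CPM, and wildtype libraries 11.1, 16.9, 14.7, 17.7 and 11.6 CPM. Of the 10 mutant libraries, 7 lay below all wildtype libraries. Siglech, a lectin of plasmacytoid dendritic cells and microglia also named by the rule, had -0.99 (adjusted p = 0.545). Cd163, the scavenger receptor of tissue macrophages for haemoglobin bound to haptoglobin, had -1.08 (adjusted p = 0.758), but -0.22 and -1.80 within the ID series. The rule's other genes on this side were Gm1965 (-1.14), the small nucleolar RNA host gene Snhg4 (-0.39), Sertad3 (-0.24), Ern2 (-0.34), LOC102632541 (-1.11) and the unnamed models ID102643145 (-1.57) and ID102631857 (-0.83), so called by their Entrez numbers, with adjusted p of at least 0.374. Ern2 encodes a stress sensor of the endoplasmic reticulum in mucus-secreting cells.

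**Figure D4:**
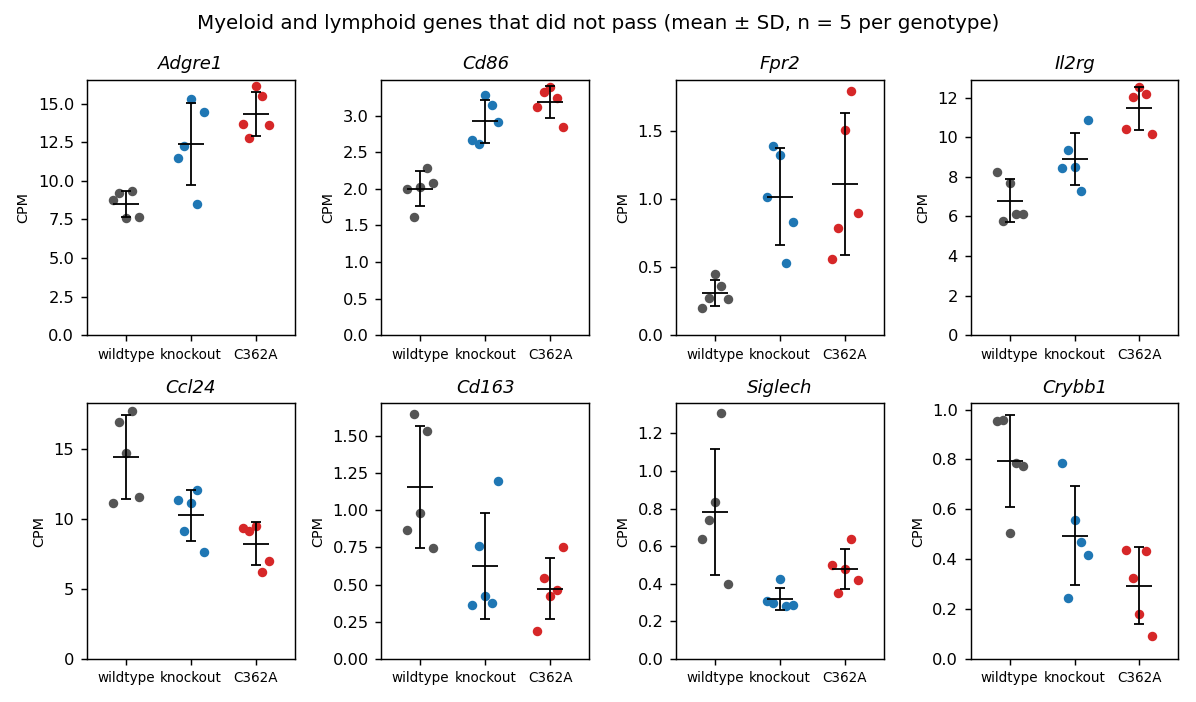
Levels in CPM (vertical axes from 0) of 8 immune genes that did not pass the pooled test, by genotype. Points are libraries and bars mean ± SD of 5. The upper row has higher means in both mutants, with every mutant library above wildtype for Cd86 and Fpr2, and the lower row has lower means with overlap between groups.

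Neutrophil genes gave 1 call, Mmp9, among 15 tested, beside 0.0544% of all genes called higher. Mmp9 was also the only 1 of the 15 higher at an unadjusted p of 0.05, beside 3.34% of all genes. All 15 neutrophil genes had a positive value, beside 9038 of all 18370 genes. Their median log2 fold change was 0.82, with 1.04 in C362A and 0.57 in knockout, beside -0.00274 over all genes. The abundant granule genes S100a8 and S100a9, named after their values were seen, had 0.83 (SE 0.58) and 0.80 (SE 0.61) and did not pass. Summed over the list, 23.3 to 62.1 CPM were found in wildtype, 39.7 to 107 CPM in knockout and 52.8 to 140 CPM in C362A. The highest sums were in C362A replicates 3 and 4, and without the 4 libraries with few detected genes the median was 0.29. Within the ID series it was 0.26 and 0.90. The value of Mmp9 without the 4 libraries was 1.16, and the part of neutrophils in it was not tested.

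The counts at an unadjusted p of 0.05 in the gene lists that follow stand beside 3.34% of all tested genes higher and 2.47% lower, and differences between the mutants' list medians were not tested. Mast cell genes gave no call. All 10 tested had a positive pooled value with a median of 0.44, which was 0.85 in C362A and 0.06 in knockout, and 2 were higher at an unadjusted p of 0.05. Mcpt4, a chymase of connective tissue mast cells, held 0.376, 0.494, 0.595, 0.719 and 0.426 CPM in wildtype, 0.506, 0.952, 0.610, 0.530 and 0.338 in knockout and 1.56, 0.676, 3.34, 2.55 and 0.479 in C362A. The highest C362A libraries, replicates 1, 3 and 4, were those with few detected genes. Without the 4 libraries the list's median was 0.09, and within the ID series 0.29 and 0.50. Hdc, the histidine decarboxylase that makes histamine, had a pooled value of 1.25 (SE 0.54, adjusted p = 0.758 in edgeR's quasi-likelihood test).

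Lymphoid genes gave no call among 18 tested in edgeR's fit, 2 were higher at an unadjusted p of 0.05, and the median was 0.10, with 0.10 and 0.15 within the ID series. Il2rg, the shared receptor chain for several interleukins, had the smallest p. It held 8.27, 5.79, 7.68, 6.15 and 6.13 CPM in wildtype, 8.45, 9.36, 8.51, 7.29 and 10.9 in knockout and 10.4, 12.1, 12.5, 12.2 and 10.2 in C362A. Of the 10 mutant libraries, 9 lay above wildtype, and the log2 fold change of 0.57 did not pass (adjusted p = 0.0922 in edgeR's quasi-likelihood test). Cd4 had 0.54 (adjusted p = 0.758). The sums over the list overlapped, with 162 to 189 CPM in wildtype, 164 to 189 in knockout and 179 to 184 in C362A.

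Interferon-stimulated genes gave 1 call, Cxcl10, among 34 tested. Of these, 31 had a positive value, 12 were higher at an unadjusted p of 0.05 (3.34% of all genes) and none was lower. The median log2 fold change was 0.26, with 0.32 in C362A and 0.27 in knockout. Named after their values were seen, Ifi44 had 1.49 (SE 0.43), Rsad2 0.91 (SE 0.37) and Isg15 0.74 (SE 0.32), none past the test. Isg15 had 1.64 within the first ID series and 0.13 within the second. The median of the list was 0.77 within the first ID series and -0.03 within the second, so its direction was not shared by both series, while the value of Cxcl10 was 1.82 and 2.10. Without the 4 libraries with few detected genes the median was 0.48, and 33 of the 34 were positive. Over the members with at least 5 CPM in 5 libraries it was 0.09. The sums overlapped, at 338 to 594 CPM in wildtype, 412 to 571 in knockout and 370 to 567 in C362A.

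Interferon-inducible GTPases, which attack vacuoles of intracellular pathogens, gave no call among 13 tested, 3 were higher at an unadjusted p of 0.05, and their median was 0.28, with 0.35 and 0.20 within the ID series. Irgm1 had 0.30 (SE 0.07, adjusted p = 0.333 in edgeR's quasi-likelihood test) and Igtp 0.40 (SE 0.10, adjusted p = 0.557). Of the 10 mutant libraries, 9 held more Irgm1 than any wildtype library. Genes of MHC class I presentation, another interferon target, had a median of -0.01 over 16 tested (0.14 and -0.08 within the ID series), no call and 1 gene higher at an unadjusted p of 0.05.

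Chemokine ligands gave 2 calls among 19 tested, Cxcl10 and Ccl12, both higher, beside 0.0544% of all genes. At an unadjusted p of 0.05, 6 were higher (3.34% of all genes) and 2 lower (2.47%), among the latter Ccl24. The median was 0.17, with 0.28 and 0.10 within the ID series, and -0.02 over the members with at least 5 CPM in 5 libraries. NF-kB subunits and targets gave no call among 20, with 3 higher at an unadjusted p of 0.05 and a median of 0.14 (0.18 and 0.11 within the ID series). Vcam1, an adhesion molecule of activated endothelium, had 0.59 (SE 0.14, adjusted p = 0.333 in edgeR's quasi-likelihood test), with 0.83 in C362A and 0.36 in knockout, and Nfkbie, an inhibitor of NF-kB, had 0.32 (adjusted p = 0.758). Endothelial genes had a median of 0.09 over 20 tested (0.03 and 0.12 within the ID series), none called. At an unadjusted p of 0.05, 3 of them were higher and 1 was lower. Madcam1, the ligand that brings lymphocytes to gut vessels, had 0.43 (adjusted p = 0.392), with every C362A library above every wildtype library and no knockout library above all of them. DESeq2 called 1 gene in each of 5 lists without a call here, Il2rg, Irgm1, Vcam1, Madcam1 and Ccn1, and limma-voom called none of them.

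Tissue stress and growth genes gave no call in edgeR's test. YAP targets, genes induced when the Hippo pathway is off, were positive in 18 of 19 with a median of 0.15, and 7 were higher at an unadjusted p of 0.05, beside 3.34% of all genes. The median was 0.08 and 0.19 within the ID series, and 0.10 without wildtype replicate 4. Their smallest p belonged to Ccn1, a matrix-associated signalling protein, which held 23.9, 23.7, 25.9, 27.2 and 29.4 CPM in wildtype, 35.1, 35.6, 32.9, 40.6 and 41.2 in knockout and 32.5, 29.6, 31.4, 32.1 and 27.9 in C362A. Of the 10 mutant libraries, 9 lay above wildtype, and the value of 0.37 did not pass (adjusted p = 0.0922 in edgeR's quasi-likelihood test). Ccn1 had 0.51 in knockout and 0.24 in C362A, the opposite order to the 10 genes that rose. Lats2, a kinase of the Hippo pathway, had 0.25 (adjusted p = 0.758). The integrated stress response had a median of 0.16 over 23 genes (0.09 and 0.20 within the ID series), with Slc7a11, the cystine transporter, at 0.67 (adjusted p = 0.758). Genes of the unfolded protein response had a median of 0.07 over 20, with 0.02 and 0.09 within the ID series and -0.01 without the 4 libraries with few detected genes. At an unadjusted p of 0.05, each of these 2 lists had 3 genes higher, and the first had 1 lower.

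**Figure D5:**
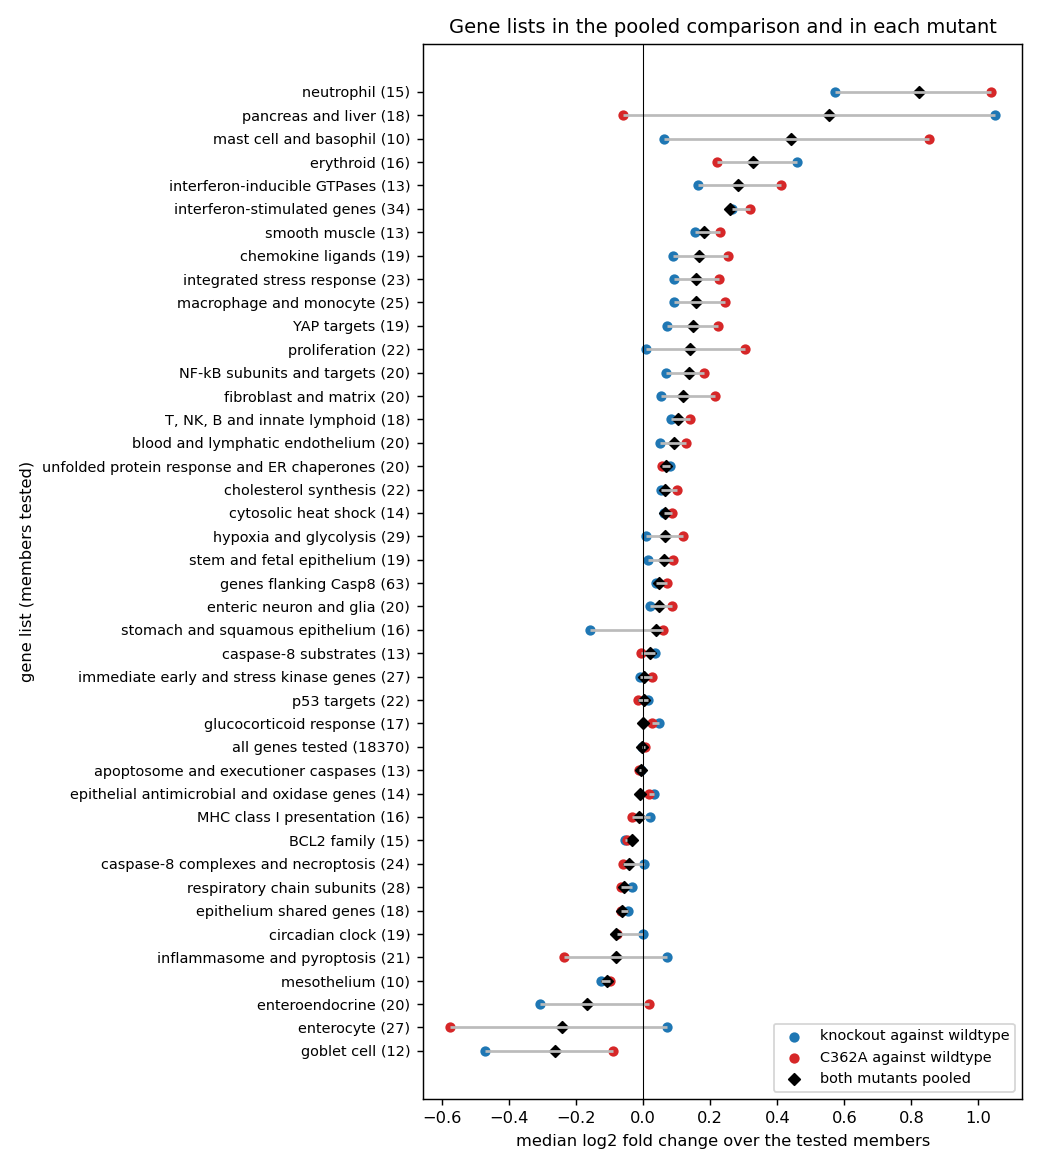
Median log2 fold change (horizontal axis) over the tested members of each gene list (number in brackets), for both mutants pooled (black), C362A (red) and knockout (blue) against the same wildtype libraries. Neutrophil genes have the highest pooled median, 0.82, and goblet cell genes the lowest, -0.26.

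Epithelial genes gave no call, by edgeR, DESeq2 or limma-voom. All 12 goblet cell genes had a negative value, with a median of -0.26, and this was -0.09 in C362A and -0.47 in knockout. Within the first ID series 8 of the 12 were negative, with a median of -0.12, and in the second all 12, with -0.33. The median was -0.11 without wildtype replicate 4 and -0.41 without wildtype replicate 1. Muc2, the main mucin of intestinal mucus, had -0.85 (SE 0.29, adjusted p = 0.758 in edgeR's quasi-likelihood test), with -0.16 and -1.29 within the ID series. Klk1, a kallikrein, had -0.68 (SE 0.26), and both were lower at an unadjusted p of 0.05. Of 27 enterocyte genes, 25 were negative, none reached an unadjusted p of 0.05, and the median of -0.24 was -0.58 in C362A and 0.07 in knockout. The pooled median was 0.05 and -0.51 within the ID series and -0.11 without the 4 libraries, and without wildtype replicate 4 it was -0.03. Rbp2, a retinol carrier of enterocytes, stood at 930 ± 579 CPM in wildtype, 890 ± 115 in knockout and 462 ± 148 in C362A (SD, n = 5 each), and its wildtype libraries spread more than the groups differed. Enteroendocrine genes had a median of 0.02 in C362A and -0.31 in knockout. Pooled, the median was -0.17 over 20, with the granule gene Chga at -0.32 and the peptide hormone gene Pyy at -0.55, neither past the test. Without wildtype replicate 4 these values were -0.04, -0.18 and -0.21. Within the ID series the median was -0.14 and -0.17, and Pyy was -0.07 and -0.81. By unadjusted p, 3 of the list were lower at 0.05, beside 2.47% of all genes.

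Stromal genes gave no call by the same 3 tests. All 13 smooth muscle genes were positive, beside 9038 of all 18370 genes, with a median of 0.18 (0.12 and 0.24 within the ID series). Within the first ID series 11 of the 13 were positive. Without the 4 libraries with few detected genes 11 were positive too, and the median was 0.11. At an unadjusted p of 0.05, 7 of the 13 were higher, beside 3.34% of all genes. Synpo2 had 0.30 (SE 0.09) and Myh11, the smooth muscle myosin heavy chain, 0.25 (SE 0.07), with adjusted p = 0.758 for both by edgeR. Of 20 fibroblast and matrix genes, 19 were positive with a median of 0.12, which was 0.05 and 0.20 within the ID series and 0.06 without wildtype replicate 4. Pdgfra, a growth factor receptor of fibroblasts, had 0.19 and Col6a1, a collagen chain, 0.16. Each of 22 proliferation genes had a positive value, and 1 of them was higher at an unadjusted p of 0.05, beside 3.34% of all genes. Their median of 0.14 was 0.30 in C362A and 0.01 in knockout. It was -0.10 within the first ID series, where 5 of the 22 were positive, and 0.29 within the second. The median was 0.07 without wildtype replicate 4. Without the 4 libraries with few detected genes it was -0.01, and 9 of the 22 were positive. Pancreas and liver genes, which mark neighbouring organs, had a median of 0.55, with -0.06 in C362A and 1.05 in knockout, and 0.77 and 0.09 within the ID series. Without C362A replicate 4 it was 0.06.

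Because both alleles were made at the Casp8 locus, genes within 5 Mb of Casp8 were examined. Casp8 itself was not counted, and of 63 other genes tested none passed. Of these, 8 were higher and none lower at an unadjusted p of 0.05, beside 3.34% and 2.47% of all genes, and the median was 0.05, with 0.08 in each ID series. Nrp2, a receptor for semaphorins and VEGF, had 0.19 and Plcl1 0.25, with adjusted p = 0.758 for both by edgeR.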

How the data were processed

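Small intestine of 15 Mlkl-knockout mouse embryos or pools was sequenced as single-end polyA libraries made with a TruSeq v2 kit, which does not mark strand, so overlapping genes cannot be told apart. Reads were aligned with GSNAP to GRCm38, per the submitters' processing notes. Neither the aligner's version nor the annotation is known (not given in the sources used here). The counts deposited by the authors are uniquely aligned reads per gene model for 36528 Entrez IDs, and the deposited RPKM values carry a size factor per library, per the file headers. Names came from RefSeq (31049 IDs) and GENCODE (78 IDs), and 5401 IDs without a name (1.68% to 1.95% of counts) stayed in the tests.

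Counts were tested in edgeR 4.0.16 (R 4.3.3) with the quasi-likelihood test, after TMM scaling and the filterByExpr filter (count at least 10, total at least 15). The fit took all 15 libraries and gave each genotype its own mean, with p-values adjusted by Benjamini and Hochberg over 18370 genes and a threshold of 0.05. The scripts were tested on simulated data. Levels are CPM scaled by the TMM factors, and RPKM served only for levels per length. Depth was 31896399 counts or more per library, and genes under 1 CPM rest on few reads. No pair of libraries within a genotype agreed within sampling noise.

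The members, gene lists and tests were chosen with earlier results of these data known. The rule for named genes took Casp8, Mlkl, Cflar, Fadd, Ripk1 and Ripk3, then up to 12 called genes a direction by fold change where the mean log2 CPM was 0 or more, filled to 10 by smallest p where fewer were called in a direction. From each list described it took the called members, up to 4, or the 2 with the smallest p where none was called, and 1 gene that it named is not reported here. Genes outside the rule, among them Serpina3f, Adgre1, Cd86, Fpr2, Cd163, Crybb1, C1qa, S100a8, S100a9, Ifi44, Rsad2, Isg15 and the genes with full separation of the libraries, were named after their values were seen. On the higher side the rule named only called genes. Alternatives were other scalings, DESeq2 1.42.0, limma-voom (limma 3.58.1), other filters, covariates, the ID series and each library left out.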

Additional observations from a re-analysis of the deposited data

Results flagged for a closer look

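A library was listed where its distance to the next value exceeded 0.71 of the range of its 5 libraries, which happened in 10 of 216 gene and genotype groups examined. Chance gives about 1 in 20. In C362A replicate 4, Ccl12 and the gene model with Entrez 102641905, which has the same counts, were lowest at 0.753 CPM, against 1.20 CPM in the next library. The same library was highest in Myh11 at 1025 CPM, against 886 CPM. C362A replicate 5 was highest in Mlkl at 0.839 CPM, against 0.361 CPM. Knockout replicate 2 was highest in Gkn3 (1.33 CPM, next 0.393 CPM) and in Tff2 (3.37 CPM, next 0.477 CPM). Knockout replicate 3 was highest in Siglech at 0.424 CPM, knockout replicate 4 in Slc7a11 at 1.995 CPM, against 1.07 CPM, and knockout replicate 5 in the gene model with Entrez 102643145 (ID102643145) at 0.416 CPM. Wildtype replicate 4 was highest in Nfkbie at 7.42 CPM, against 6.09 CPM.

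The test of C362A against knockout, in edgeR's quasi-likelihood fit, found a difference between the mutants for 2 of the genes named. Casp8 differed by 2.28 and Ddit4 by 0.59 on the log2 scale, both higher in C362A.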

How the results depend on the processing

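No result in the tables changed sign while called. For the pooled comparison, 11 genes were called with size factors of the RLE kind, library totals, limma-voom or robust estimates off, 13 without a filter, 12 with a block for the ID series and 10 with a covariate for Y-linked expression. The count was 28 (26 higher, 2 lower) with DESeq2, which added among others Adgre1, Fpr2, Cd86, Il2rg, Ccn1, Vcam1, Irgm1, Madcam1, Gimap4, Rgs16, Gm10677 and, lower, Ccl24. It was 2 with a filter of 5 CPM in 5 libraries, where 8 of the 11 genes were not tested and Dnase1l3 was tested and lost its call, 7 at a threshold of 0.01, and 6 with the 10 mutants as 1 group, where Casp8, Dnase1l3, Mgl2, Serpina3f and Spic were lost. It was 1 within the first ID series, 685 within the second and 6 without the 4 libraries with few detected genes. Leaving out 1 library gave 5 to 15 genes. For C362A against knockout, 2 genes were called, and 26 (19 higher, 7 lower) with DESeq2, 1 within the first ID series, 372 (122 higher, 250 lower) within the second and 1 without the 4 libraries. Leaving out 1 library gave 2 to 805 genes, the 805 without C362A replicate 5. The cause was not tested. Casp8 and Mmp9 remained past the pooled test under the 5 CPM filter. No paired analysis was possible because the labels carry no replicate numbers. Genes under 1 CPM, such as Spic, Ccl12 and Serpina3f in wildtype, rest on few counts per library, which limits their precision.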

Other observations

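Other gene groups gave no call in the pooled comparison. The 28 respiratory chain genes showed a median of -0.06 on the log2 scale (-0.17 and 0.02 within the ID series), with Cox5b at -0.15. The 19 circadian clock genes had a median of -0.08 (-0.005 and -0.14 within the ID series), with Bhlhe40 at -0.24. The 22 cholesterol synthesis genes had a median of 0.07 (0.03 and 0.10 within the ID series), and 20 of them were positive, beside 9038 of all 18370 genes. Within the first ID series 12 of the 22 were positive. Without the 4 libraries with few detected genes 15 were positive, and the median was 0.02. Sqle, an enzyme of that pathway, had 0.23, not past edgeR's quasi-likelihood test (adjusted p = 0.758). The 22 p53 target genes had a median of 0.00 (0.02 and -0.02 within the ID series) and none reached an unadjusted p of 0.05. Among 16 stomach and squamous epithelium genes, 9 were positive, and the median was 0.04, with 0.06 in C362A and -0.16 in knockout. Within the ID series the pooled median was -0.02 and -0.06. At an unadjusted p of 0.05, 3 of the 16 were lower, beside 2.47% of all genes. Among these 3 were Gkn3 at -2.14 (SE 0.60) and Tff2 at -1.99 (SE 0.80), secreted proteins of the stomach. Gkn3 held 2.09 ± 1.51 CPM in wildtype, 0.454 ± 0.506 CPM in knockout and 0.491 ± 0.340 CPM in C362A (SD, n = 5 each). Summed over the stomach and squamous epithelium list, 269 CPM were found in 1 C362A library, against at most 34.3 CPM in knockout and 33.7 CPM in wildtype. The sum was not split between stomach and squamous genes.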
